A study of Mus musculus with 8 samples.

Results

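The genes examined here serve protein folding in the endoplasmic reticulum (ER) and the unfolded protein response, the program that a cell turns on when unfolded proteins build up in the ER. They were taken by name. The rule held 34 symbols for 33 genes, since Armet is an older name of Manf, and every probe of the array carrying one of these symbols was taken. It found 42 probes for 28 genes, out of 25697 probes for 18138 gene symbols. The other 5 genes, Dnajb11, Sdf2l1, Atf6, Eif2ak3 and Ppp1r15a, were not analysed here under those symbols. Total RNA of 8 colon tumors from mice was measured on 1-colour Illumina BeadChips, 1 array per tumor. All mice carried the Min allele of Apc beside a normal copy (APCmin/+), which gives rise to intestinal tumors, had a mixed C57BL/6J-FVBN background and were 8 months old. In 4 tumors (VP16LXRa, replicates 5 to 8) a transgene encoded the cholesterol-sensing nuclear receptor LXRα fused to VP16, a viral activation domain that makes the receptor active without its ligand. In the other 4 (VP16, the controls, replicates 1 to 4) the transgene encoded VP16 alone. The labels name no promoter for either transgene and do not say whether the tumors came from separate mice, so that p-values here reflect only how far these 8 samples vary, which may be in part technical.

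In the unfolded protein response, 3 sensors in the ER membrane, IRE1 (gene Ern1), PERK (Eif2ak3) and ATF6 (Atf6), are held inactive by the chaperone BiP (Hspa5) until unfolded proteins draw it away. IRE1 splices the mRNA of the transcription factor XBP1, ATF6 is cut to release a transcription factor, and PERK slows translation while the factor ATF4 is made. XBP1 and ATF6 raise chaperones and the degradation machinery of the ER, and ATF4 raises genes of amino acid supply and the factor CHOP (Ddit3). In the colon, secretory cells such as goblet cells and antibody-secreting plasma cells carry a large ER and depend on XBP1.

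The comparison of VP16LXRa with VP16 tumors asks what an always active LXRα changes in colon tumors. No gene of the unfolded protein response or ER folding set passed the test between the genotypes. Of the 28 genes 23 passed the filter on dim probes, which asked that a probe be detected, at a detection p of 0.01, on 4 or more of the 8 arrays. In limma's test with Benjamini-Hochberg adjustment over all 11875 kept probes 0 of the 23 passed an adjusted p of 0.05, against 0.00842% of all kept probes. At an unadjusted p of 0.05 the count was also 0 of 23, against 1.68% of all kept probes, and the groups overlapped for all 23, against 1.28% of kept probes whose groups did not overlap. Against these backgrounds a count of 0 among 23 genes sets them apart from no other probes. The median log2 difference over the 23 genes (VP16LXRa minus VP16) was 0.01, beside 0.002 over all kept probes, with 12 genes above 0 and 11 below, where 50.4% of all kept probes were above 0. With each gene at its brightest kept probe, the differences lay between -0.25 (Calr) and 0.43 (Chac1). For 19 of the 23 genes the 95% interval of the difference excluded a 2-fold change in either direction, and for Dnajb9, Pdia6, Chac1 and Edem1 it did not.

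**Figure D1:**
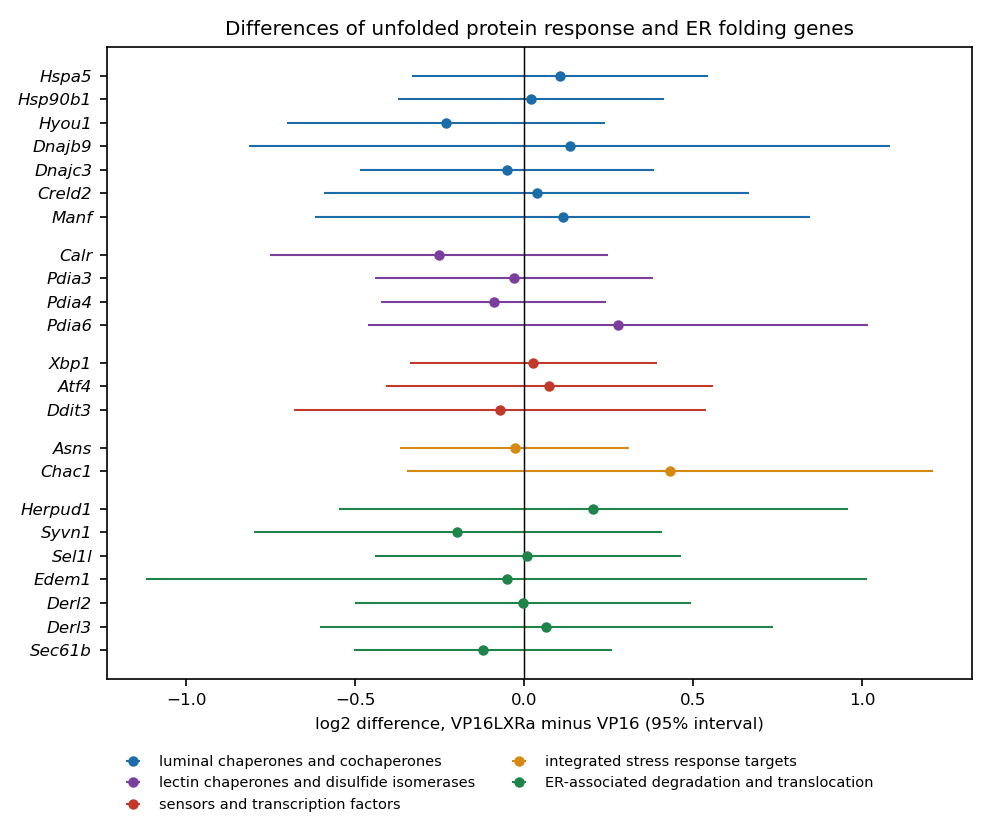
Log2 difference of normalised intensity (VP16LXRa minus VP16, x axis) for each of the 23 genes tested, in rows grouped by role; points are the fitted differences and bars their 95% intervals (4 tumors each). Every interval crosses 0, and the differences run from -0.25 for Calr to 0.43 for Chac1.

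The tumors of a group did not vary evenly, since 2 tumors, 1 of each genotype, stood apart from the rest. VP16LXRa replicate 5 and VP16 replicate 1 correlated best with each other across the kept probes (r = 0.95). Each of the other 6 correlated best with another of the 6, at 0.948 (VP16 replicate 4) to 0.974, so that the size of r alone does not set the 2 apart. The 2 were alone in a high level of Axin2, a target of Wnt signalling. Its log2 intensity was 11.54 in VP16LXRa replicate 5 and 11.35 in VP16 replicate 1, against 8.51 to 9.14 in the other 6. The labels give no difference between these and the other tumors. Results that rest on them are given below with and without them. Of the markers of colon epithelium 8 of 10 passed the filter on dim probes, with summed intensities of 51924 to 77650 in VP16LXRa and 69279 to 88230 in VP16 tumors, and Epcam was not analysed here. Colon epithelial markers were thus present in all 8 tumors. They do not tell tumor from normal epithelium, and the tumor content of the samples was not tested. Summed Wnt targets were 5680 in VP16LXRa replicate 5 and 4647 in VP16 replicate 1, against 755 to 1149 in the other 6. Summed markers of absorptive colonocytes were 526 in VP16LXRa replicate 5 and 6700 in VP16 replicate 1, against 27765 to 36432 in the other 6. Total RNA cannot tell fewer cells of a type from less RNA per cell, here and in every result below.

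Several of the genes share a short sequence before their start. The genes were named as members of the response, and the motifs searched are known sites of the same response. Matches were thus likely in advance, and the counts below are a description and no independent result. The ER stress response element (ERSE) reads CCAAT, 9 bases of any kind and CCACG, and is the site bound by ATF6 and XBP1 together with the factor NF-Y. ERSE-II, its shorter relative, reads ATTGG, 1 base of any kind and CCACG. A search of both strands over the 250 bases before the start found the ERSE letters in 8 of the 21 tested genes with a promoter in the RefSeq table (build GRCm38.p6), and in 0.113% of all 32851 promoters there. ERSE-II was found in Herpud1 alone of the 21, and in 0.0304% of all promoters. The letters TGATGCAA, the core of the amino acid response element bound by ATF4, stood in Chac1 and Herpud1 and in 0.791% of all promoters. The core TGACGTGG of the XBP1 site UPRE stood in 0 of the 21 and in 0.563% of all promoters. These motifs do not overlap each other in the matches found, and a match is a run of letters, not a measured binding site. The 250 bases before the start of 5 genes whose values are given in full below are printed 5′ to 3′ along the gene, with motif matches in capitals. They show ERSE-II and the amino acid response core in Herpud1, ERSE in Pdia6, Syvn1 and Hspa5, and the amino acid response core in Chac1. In Herpud1 and Chac1 that core lies on the opposite strand and is read here as TTGCATCA.
Herpud1, chr8:94386179-94386428, + strand: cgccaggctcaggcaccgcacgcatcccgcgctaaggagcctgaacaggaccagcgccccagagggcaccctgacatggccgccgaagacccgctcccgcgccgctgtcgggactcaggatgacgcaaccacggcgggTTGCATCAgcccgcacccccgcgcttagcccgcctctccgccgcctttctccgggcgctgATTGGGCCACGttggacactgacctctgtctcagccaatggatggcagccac
Pdia6, chr12:17266339-17266588, + strand: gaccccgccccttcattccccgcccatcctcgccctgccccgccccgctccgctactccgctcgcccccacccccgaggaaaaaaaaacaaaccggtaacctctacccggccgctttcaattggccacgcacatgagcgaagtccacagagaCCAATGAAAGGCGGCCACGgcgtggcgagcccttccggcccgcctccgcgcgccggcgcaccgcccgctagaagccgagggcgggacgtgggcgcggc
Syvn1, chr19:6046326-6046575, + strand: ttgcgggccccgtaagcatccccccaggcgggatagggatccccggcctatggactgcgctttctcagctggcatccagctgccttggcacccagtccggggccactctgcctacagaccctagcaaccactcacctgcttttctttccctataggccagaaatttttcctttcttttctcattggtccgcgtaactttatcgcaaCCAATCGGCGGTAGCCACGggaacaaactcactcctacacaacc
Hspa5, chr2:34771840-34772089, + strand: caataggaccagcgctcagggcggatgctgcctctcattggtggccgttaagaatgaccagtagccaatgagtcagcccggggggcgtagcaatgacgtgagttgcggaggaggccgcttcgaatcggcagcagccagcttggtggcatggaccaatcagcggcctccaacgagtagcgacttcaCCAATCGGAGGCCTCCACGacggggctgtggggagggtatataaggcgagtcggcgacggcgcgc
Chac1, chr2:119350992-119351241, + strand: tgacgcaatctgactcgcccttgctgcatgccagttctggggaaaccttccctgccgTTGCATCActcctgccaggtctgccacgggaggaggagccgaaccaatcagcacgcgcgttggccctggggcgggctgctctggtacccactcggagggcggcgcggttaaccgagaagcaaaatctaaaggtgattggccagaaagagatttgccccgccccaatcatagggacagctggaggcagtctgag

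The ERSE matches of the other genes are shown alone, read along the gene, to show the bases between the fixed parts beside each other. Where the match is antisense, the fixed parts read CGTGG and ATTGG.
Hsp90b1, chr10:86705638-86705656, sense to the gene: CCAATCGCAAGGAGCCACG
Hsp90b1, chr10:86705533-86705551, antisense to the gene: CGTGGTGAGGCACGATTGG
Dnajc3, chr14:118937827-118937845, sense to the gene: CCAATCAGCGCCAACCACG
Creld2, chr15:88819520-88819538, antisense to the gene: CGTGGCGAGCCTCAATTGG
Calr, chr8:84847075-84847093, antisense to the gene: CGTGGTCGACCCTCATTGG
Derl3, chr10:75893242-75893260, antisense to the gene: CGTGGGACTTCCCCATTGG

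Among the luminal chaperones, Hspa5 encodes BiP, the main Hsp70 of the ER and the reference gene of the response. In VP16LXRa replicates 5 to 8 its normalised log2 intensity was 7.76, 7.63, 7.98 and 7.96, against 7.40, 7.54, 8.05 and 7.92 in VP16 replicates 1 to 4. The groups overlapped, with the lowest and the highest value both in VP16 tumors. The log2 difference was 0.11 (SE 0.19, limma adjusted p = 0.9999). That adjusted p was the same for each of the 23 genes and is not repeated below. Dnajb9, a cochaperone of BiP that holds back IRE1, varied far more. It stood at 8.33, 10.17, 9.69 and 9.71 in VP16LXRa replicates 5 to 8, against 8.66, 9.37, 9.91 and 9.40 in VP16 replicates 1 to 4. The lowest tumor of either group was 1 of the 2 that stand apart, and the difference between the groups was 0.13 (SE 0.41). Without these 2 tumors it was 0.29 (SE 0.22).

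Hyou1, which renews the nucleotide of BiP, measured 5.95, 6.17, 6.56 and 6.46 in VP16LXRa replicates 5 to 8 and 6.44, 6.50, 6.89 and 6.23 in VP16 replicates 1 to 4. The groups overlapped at a log2 difference of -0.23 (SE 0.21). Manf, a small secreted protein that binds BiP, is carried by the array as Armet. It was near background, with detection in 2 tumors of each genotype and values of 4.72, 5.94, 5.15 and 5.56 in VP16LXRa replicates 5 to 8 and 5.46, 4.81, 4.87 and 5.78 in VP16 replicates 1 to 4. Its highest and its lowest value were both in VP16LXRa tumors, and its difference was 0.11 (SE 0.32). The other 3 luminal genes had differences below their errors. They were Hsp90b1, the ER form of Hsp90 (0.02, SE 0.17), Dnajc3, a cochaperone also known as an inhibitor of PERK (-0.05, SE 0.19), and Creld2, an ER stress gene with EGF-like repeats (0.04, SE 0.28, and 0.025 at its second probe).

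Calr and Canx encode the lectin chaperones that hold glycoproteins in the folding cycle, and the Pdia genes encode the enzymes that form and rearrange disulfide bonds. Calr had the most negative difference of the 23 genes at their brightest probes. Its values were 7.48, 8.06, 7.83 and 7.89 in VP16LXRa replicates 5 to 8, against 8.05, 8.04, 7.66 and 8.52 in VP16 replicates 1 to 4. Both groups spread over more than their difference of -0.25 (SE 0.22, 95% interval -0.75 to 0.25). Pdia6 measured 6.18, 7.12, 7.30 and 7.44 in VP16LXRa replicates 5 to 8 and 6.09, 7.05, 6.95 and 6.83 in VP16 replicates 1 to 4. Here 1 tumor of each group lay well below the others, and the difference was 0.28 (SE 0.32). Without these 2 tumors the 3 VP16LXRa values lay above the 3 VP16 values and the difference was 0.34 (SE 0.16, limma unadjusted p = 0.0671). With 3 tumors a group, 8.03% of all kept probes had groups that did not overlap. Pdia6 was the 1 gene of the 23 to do so. Pdia3, the partner of calreticulin (-0.03, SE 0.18), and Pdia4 (-0.09, SE 0.15) differed by less than their errors. The 1 probe of Canx was detected on no array.

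Of the sensors and transcription factors, Xbp1 was the most even. It stood at 12.43, 12.76, 12.67 and 12.75 in VP16LXRa replicates 5 to 8 and at 12.35, 12.73, 12.72 and 12.72 in VP16 replicates 1 to 4. Outside the 2 tumors that stand apart its 6 values lay within 0.09 of each other, and those 2 deviated from the median of the 6 by -0.29 (VP16LXRa replicate 5) and -0.37 (VP16 replicate 1). Its group difference was 0.03 (SE 0.16, 95% interval -0.34 to 0.39). The array measures the total mRNA of Xbp1, and its splicing by IRE1 was not analysed here. Ddit3, which encodes the death-promoting factor CHOP, measured 7.46, 8.11, 8.35 and 8.10 in VP16LXRa replicates 5 to 8, against 7.55, 8.31, 8.49 and 7.96 in VP16 replicates 1 to 4. The lowest values were again those of the same 2 tumors. The difference was -0.07 (SE 0.27), and -0.095 at the second probe.

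Atf4, the factor made under PERK, had 2 detected probes that did not behave alike. The brighter read 11.08, 11.82, 11.54 and 11.18 in VP16LXRa replicates 5 to 8 and 11.13, 11.46, 11.59 and 11.14 in VP16 replicates 1 to 4, a difference of 0.07 (SE 0.21). The dimmer read 8.55, 9.12, 6.44 and 8.71 in VP16LXRa replicates 5 to 8 and 8.47, 9.68, 9.16 and 9.18 in VP16 replicates 1 to 4, a difference of -0.92 (SE 0.56). VP16LXRa replicate 7 was low at the dimmer probe and not at the brighter, and with the mean of the probes the difference of Atf4 was -0.42. Neither probe passed the test. Without VP16LXRa replicate 5 and VP16 replicate 1 the groups of the dimmer probe no longer overlapped, at a difference of -1.25 (SE 0.66, limma unadjusted p = 0.1026). The sensor gene Ern1 was detected on no array, so that none of the genes of IRE1, PERK and ATF6 could be tested under the symbols used. Their relatives Ern2 and Atf6b were tested among the wider pathway genes below, and neither passed.

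ATF4 raises Asns, the enzyme that makes asparagine, Chac1, which breaks down glutathione, and Trib3, a pseudokinase that restrains ATF4. Chac1 had the largest difference of the 23 genes at their brightest probes. It stood at 7.00, 6.32, 7.53 and 7.20 in VP16LXRa replicates 5 to 8 and at 6.08, 7.38, 6.39 and 6.49 in VP16 replicates 1 to 4. The groups overlapped, since VP16 replicate 2 was among the higher tumors and VP16LXRa replicate 6 among the lower. The difference of 0.43 (SE 0.34, 95% interval -0.35 to 1.21) is 1.35-fold and did not pass (limma unadjusted p = 0.24). Asns differed by -0.03 (SE 0.15), and by -0.19 (SE 0.16) at its dimmer probe, while its remaining probe was detected on no array. Of the 3 probes of Trib3, 2 were detected on no array and the other in 1 VP16LXRa tumor. Ppp1r15a, the phosphatase subunit that restarts translation, was not found under that symbol. RefSeq gives Myd116 as its older name, and the Myd116 probe, not counted among the 28, differed by -0.09 (SE 0.37).

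Herpud1, Syvn1, Sel1l, Edem1 and the derlins work in ER-associated degradation, which takes misfolded proteins out of the ER to the proteasome. Herpud1, a scaffold of that machinery, read 11.36, 12.49, 12.60 and 12.59 in VP16LXRa replicates 5 to 8, against 11.56, 12.25, 12.50 and 11.91 in VP16 replicates 1 to 4. Its second probe kept VP16LXRa replicate 5 and VP16 replicate 1 as the 2 lowest tumors. The differences at the 2 probes were 0.20 (SE 0.33) and 0.18 (SE 0.34). Syvn1, the ubiquitin ligase HRD1, measured 11.13, 11.99, 12.07 and 11.67 in VP16LXRa replicates 5 to 8 and 11.37, 12.05, 12.13 and 12.10 in VP16 replicates 1 to 4, a difference of -0.20 (SE 0.26). Edem1, which trims mannose from misfolded glycoproteins, varied most of the 23, with a range of 1.99 over the 8 tumors. It stood at 5.38, 7.36, 6.21 and 6.71 in VP16LXRa replicates 5 to 8 and at 5.48, 6.61, 6.83 and 6.95 in VP16 replicates 1 to 4. Its 2 low values were nearly alike, 1 in each group, and the difference was -0.05 (SE 0.47).

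Sel1l, the partner of HRD1, differed by 0.01 (SE 0.20) at its brightest probe and by -0.21 (SE 0.29) at the next, and its remaining probe was detected on 3 arrays only. Derl2 differed by -0.003 (SE 0.22). Derl3, a derlin of secretory cells, differed by 0.06 (SE 0.29) and was near background as well, again detected in 2 tumors of each genotype. Derl1 was detected on no array. Sec61b, a subunit of the channel through which proteins enter the ER, is the last gene with values in each tumor. It measured 9.59, 9.87, 10.10 and 10.06 in VP16LXRa replicates 5 to 8 and 10.10, 9.84, 10.14 and 10.04 in VP16 replicates 1 to 4, with overlapping groups and a difference of -0.12 (SE 0.17). The translocon-associated gene Ssr1 was detected on no array.

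**Figure D2:**
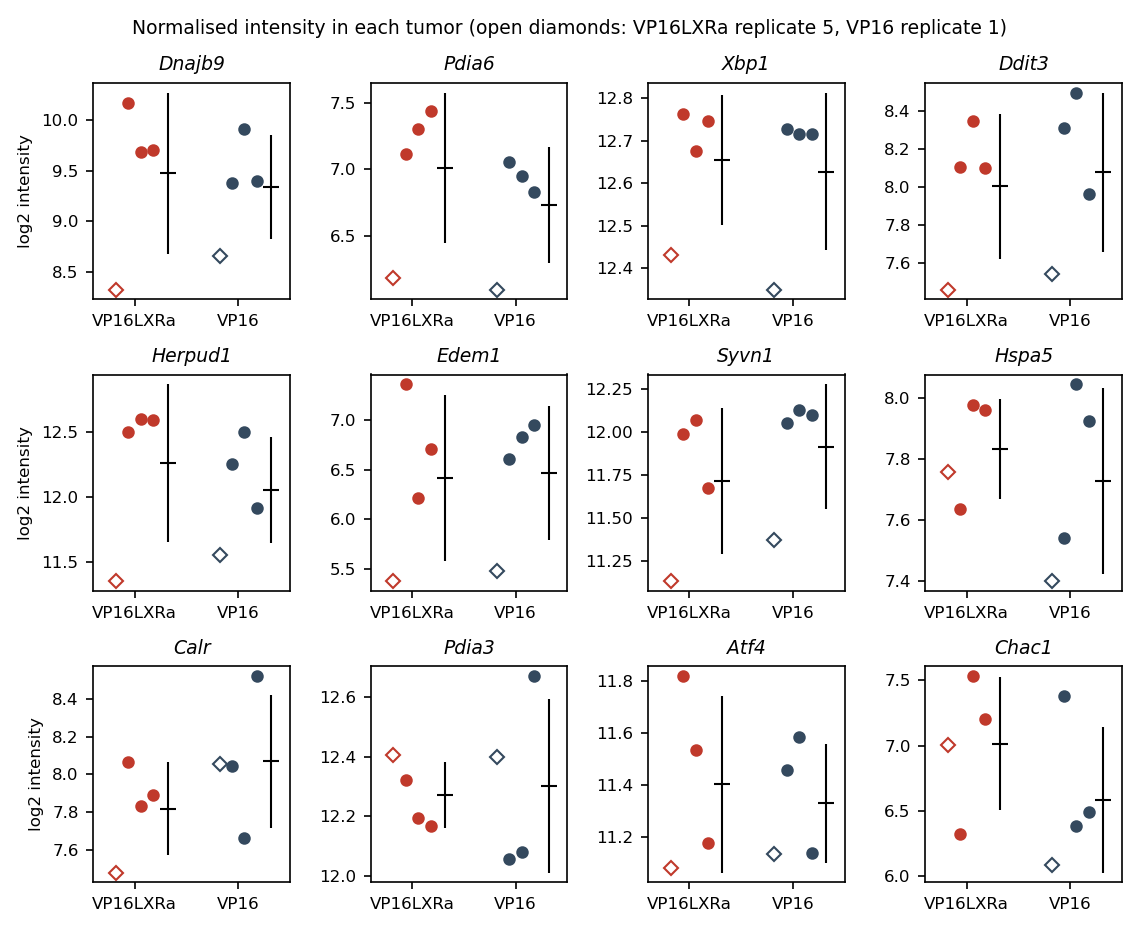
Normalised log2 intensity (y axis, a scale of its own for each gene) of 12 genes in each tumor, with VP16LXRa left of VP16; open diamonds are VP16LXRa replicate 5 and VP16 replicate 1, and the bars at the right of each group are the mean and SD (n = 4). The diamonds are the 2 lowest tumors for Dnajb9, Pdia6, Xbp1, Ddit3, Herpud1, Edem1, Syvn1 and Atf4, and not for Hspa5, Calr, Pdia3 and Chac1. For Atf4, drawn at its brighter probe, the margin was narrow.

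Many of the genes were low in the same 2 tumors, 1 of each genotype. The median deviation of the 23 genes from their own means was -0.45, 0.08, 0.16 and 0.17 in VP16LXRa replicates 5 to 8 and -0.29, 0.09, 0.18 and 0.04 in VP16 replicates 1 to 4. VP16LXRa replicate 5 and VP16 replicate 1 were thus the lowest of their groups, and the other 6 tumors lay between 0.04 and 0.18. For 12 of the 23 genes (52.2%) these 2 tumors lay below all other 6, against 19.4% of all kept probes, and for 0 of the 23 they lay above them, against 20.4% of all kept probes. The 12 were Hsp90b1, Dnajb9, Dnajc3, Pdia6, Xbp1, Atf4, Ddit3, Herpud1, Syvn1, Sel1l, Edem1 and Derl3. They include 5 of the 7 genes of degradation and translocation and all 3 tested transcription factors, but only 1 of the 4 lectin and disulfide genes. Of these factors Atf4 counts by a narrow margin, at 11.135 in VP16 replicate 1 against 11.138 in VP16 replicate 4. At its dimmer probe VP16LXRa replicate 7 was instead the lowest tumor. Derl3 was near background, at 4.52 in VP16LXRa replicate 5 and 4.71 in VP16 replicate 1. It passed the filter through tumors where it was higher, so that its place among the 12 follows in part from the filter. All these counts describe 2 tumors among 8 and were not tested, since the 2 were singled out by their expression.

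The sizes of these deviations differed between genes, also between genes of 1 role. Relative to the median of the other 6 tumors, Edem1 deviated by -1.39 log2 units in VP16LXRa replicate 5 and by -1.29 in VP16 replicate 1. The deviation of Dnajb9 was -1.37 in VP16LXRa replicate 5 and -1.03 in VP16 replicate 1, and that of Herpud1 was -1.14 in VP16LXRa replicate 5 and -0.94 in VP16 replicate 1. The general chaperone Hspa5 deviated by -0.18 in VP16LXRa replicate 5 and by -0.54 in VP16 replicate 1, and the first of these tumors lay within the range of the other 6. Pdia3 was instead 0.23 higher in VP16LXRa replicate 5 and 0.22 higher in VP16 replicate 1. Calr, Pdia4, Manf, Asns and Sec61b were below the median of the 6 in VP16LXRa replicate 5 and above it in VP16 replicate 1, and Chac1 was the other way round.

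**Figure D3:**
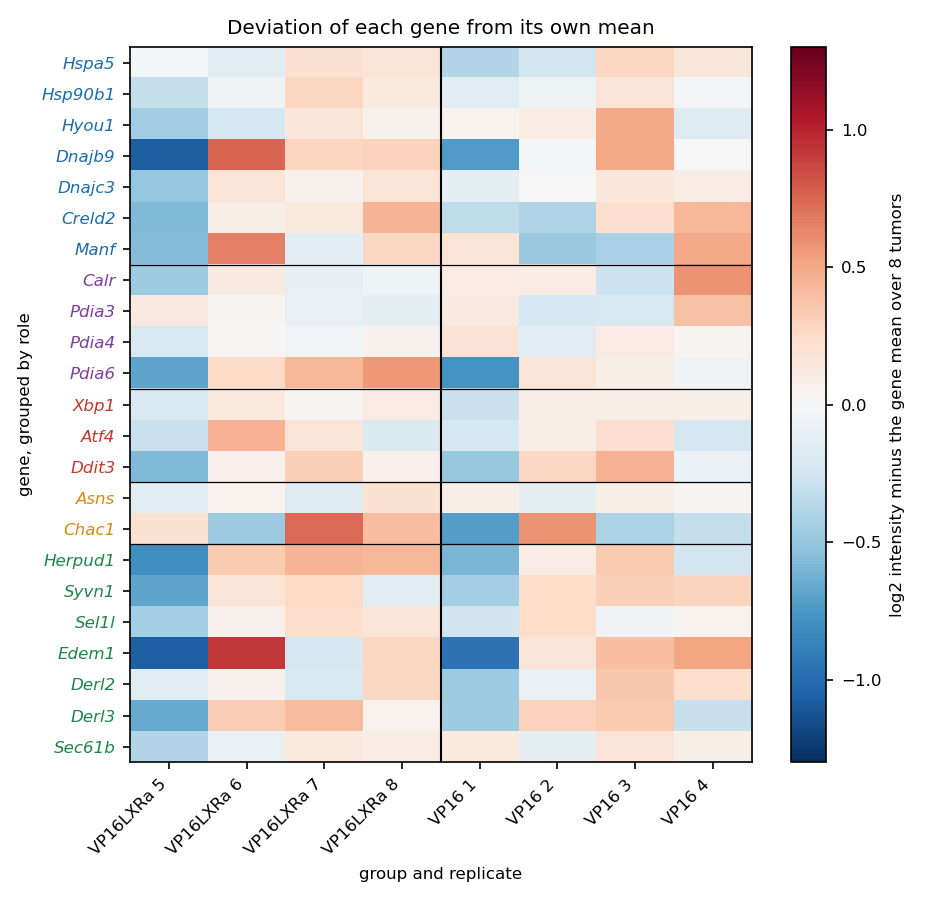
Log2 intensity of the 23 genes (rows, grouped and coloured by role) in each of the 8 tumors (columns, VP16LXRa left of VP16), as the deviation from each gene's mean over the 8 tumors. The blue columns are VP16LXRa replicate 5, with 2 of 23 genes above their own mean, and VP16 replicate 1, with 7, against 12 to 19 in the other 6.

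Markers of secretory cells, when summed, were lowest in the same 2 tumors, though not each marker was. Marker sums, above and below, are of linear intensities after background correction and quantile normalization. Each marker that passed the filter on dim probes enters at its brightest kept probe. Goblet cell markers, of which 6 of 10 passed, had sums of 11745 to 154010 in VP16LXRa and 33599 to 156022 in VP16 tumors. The lowest in each group were VP16LXRa replicate 5 and VP16 replicate 1, against 49961 to 156022 in the other 6. Both tumors lay below all other 6 for 4 of 6 goblet markers (66.7%), but not for Tff3 and Spink4. Tff3 was 11.82 in VP16 replicate 4 against 12.61 in VP16 replicate 1, and Spink4 13.55 against 13.87. Plasma cell markers, 6 of 10 passing, summed to 222 to 3663 in VP16LXRa and 550 to 3237 in VP16 tumors, with the same 2 tumors lowest and 1686 to 3663 in the other 6. For 5 of 6 plasma cell markers (83.3%), all but Cd38, both tumors lay below all other 6. Markers of absorptive colonocytes, 6 of 9 passing, summed to 526 to 36432 in VP16LXRa and 6700 to 35027 in VP16 tumors, again lowest in these 2. Both tumors lay below all other 6 for 6 of 6 colonocyte markers (100%) and for 5 of 8 colon epithelium markers (62.5%). These shares exceed the 52.2% of the 23 ER genes, beside 19.4% of all kept probes. Some of the markers counted were not detected in every tumor. They were Aqp8, Car4, Slc26a3 and Hpgd of colonocytes, Clca3 of goblet cells and Igj, Pou2af1, Tnfrsf17 and Irf4 of plasma cells. They passed the filter through tumors where they were higher, so that these shares follow in part from the filter. Atoh1 of the goblet list was detected in 1 VP16LXRa tumor only and Prdm1 of the plasma cell list on no array, and Muc2, Fcgbp and Zg16 of the goblet list, Cd79a, Igh-6 and Fam46c of the plasma cell list and Car1, Slc9a3 and Ms4a12 of the colonocyte list were not analysed here.

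Markers of Wnt signalling and of neutrophils, when summed, were highest in these tumors. Both tumors lay above all other 6 for 5 of 6 Wnt targets, all but Tcf7, against 20.4% of all kept probes. For neutrophil markers the count was 4 of 5, all but Retnlg. Wnt targets, 6 of 10 passing, summed to 5680 in VP16LXRa replicate 5 and 4647 in VP16 replicate 1, against 755 to 1149 in the other 6 (796 to 5680 in VP16LXRa and 755 to 4647 in VP16 tumors). Outside the sum, Lgr5 and Notum were detected on 3 arrays each, Nkd1 on 2 and Lef1 on none. Neutrophil markers, 5 of 10 passing, summed to 297 to 6296 in VP16LXRa and 204 to 3380 in VP16 tumors, highest in the same 2. S100a8 and S100a9, outside the sum, were detected in VP16LXRa replicates 5 and 8 and VP16 replicate 1. The log2 intensity of S100a8 was 12.93 in VP16LXRa replicate 5, 9.17 in VP16LXRa replicate 8 and 11.05 in VP16 replicate 1, and 4.37 to 4.79 in the other 5 tumors. Cxcr2 and Ngp were detected on 1 array each, and Ly6g was not analysed here. Macrophage markers, 9 of 10 passing, with Cd163 detected in 1 tumor of each genotype and outside the sum, came to 2456 to 10385 in VP16LXRa and 2254 to 4663 in VP16 tumors. They were highest in VP16LXRa replicate 5, while VP16 replicate 1 lay within the 2254 to 5935 of the other 6.

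VP16LXRa replicate 8 stood apart in another way. The exocrine pancreas markers Cpa1, Pnlip, Ctrb1, Amy2 and Cel, which encode digestive enzymes, were detected in that tumor alone, at log2 intensities of 8.33 (Cel) to 10.46 (Amy2), against 4.26 to 5.00 in the other 7 tumors. They did not pass the filter. The 2 pancreas markers that did summed to 4041 to 4728 in VP16LXRa and 2112 to 4190 in VP16 tumors, and Prss1 was not analysed here. The sum hides an uneven marker. Cela1 stood at 10.40 to 12.20 over the 8 tumors. Pnliprp1 stood at 11.41 in VP16LXRa replicate 5, 10.32 in VP16LXRa replicate 8 and 9.40 in VP16 replicate 1, against 5.35 to 8.37 in the rest. Without VP16LXRa replicate 8 the median log2 difference over the 23 genes was -0.047, with 9 of 23 above 0, in place of 0.009 and 12 over all 8 tumors, and 0 of 23 passed limma's adjusted threshold or had an unadjusted p under 0.05. The part of these cell types, pancreas included, in the levels of the ER genes was not tested.

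Leaving out VP16LXRa replicate 5 and VP16 replicate 1 did not produce a call between the genotypes. Of the 23 genes 16 then differed upward, against 50.9% of all kept probes, with a median log2 difference of 0.035 beside 0.004 over all kept probes. In limma's test 0 of 23 passed after adjustment (0.0337% of kept probes did) and 0 of 23 had an unadjusted p under 0.05 (3.24% did). The balance of signs moved with either tumor alone. Without VP16 replicate 1 alone 6 of the 23 genes were above 0, and without VP16LXRa replicate 5 alone 17 were. The median difference was -0.068 without the VP16 tumor and 0.128 without the VP16LXRa tumor.

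The wider pathway was read from 121 further genes in 5 lists, 110 of them present on the array and 93 of these bright enough for the test. In limma's test 0 of 93 passed after adjustment, 51 differed upward and 42 downward, and the median log2 difference was 0.03. At an unadjusted p of 0.05 1 of the 93 was called. This was Ube2j1, a ubiquitin-conjugating enzyme of ER-associated degradation. It read 6.38, 6.55, 7.12 and 6.90 in VP16LXRa replicates 5 to 8, against 6.29, 6.16, 6.08 and 6.36 in VP16 replicates 1 to 4. The groups did not overlap, though the lowest VP16LXRa tumor (6.38) was close to the highest VP16 tumor (6.36), and the difference was 0.51 (SE 0.19, limma unadjusted p = 0.0274, adjusted p = 0.9999). At 1 of 93, the count is near the background of 1.68%.

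By smallest p, the genes next to Ube2j1 in the degradation list were the ubiquitin ligase Rnf5 (-0.18, SE 0.17) and Aup1 (0.17, SE 0.17). In the folding and redox list they were Erp44, which returns ER proteins from the Golgi (-0.43, SE 0.20), the cochaperone Dnajc10 (0.29, SE 0.16) and the glucosidase subunit Prkcsh (0.21, SE 0.14). The translocation list was led by the signal recognition particle receptor subunit Srprb (-0.46, SE 0.29, but 0.30, SE 0.32, at its other kept probe), Sec61g (0.28, SE 0.19) and the signal peptidase subunit Sec11c (0.35, SE 0.26). Among sensors and b-ZIP factors came the interferon-induced kinase Eif2ak2 (-0.63, SE 0.31), Tmed2 (-0.26, SE 0.27) and Creb3l1 (-0.45, SE 0.51). In the amino acid and ATF4 target list came Stc2 (0.50, SE 0.25), Vegfa (0.36, SE 0.20) and Eif4ebp1 (0.36, SE 0.26). None of these genes passed the test.

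In the 2 tumors that stand apart the 5 lists gave different counts. VP16LXRa replicate 5 and VP16 replicate 1 lay below all other 6 tumors for 7 of 17 genes of folding and redox (41.2%), 9 of 22 of translocation and glycosylation (40.9%) and 5 of 15 sensors and b-ZIP factors (33.3%). For the 11 further genes of ER-associated degradation the count was 2 (18.2%), close to the 19.4% of all kept probes. For the amino acid and ATF4 target genes both tumors lay above all others for 11 of 28 genes (39.3%), against 20.4% of all kept probes. They lay below them for 1 (3.57%), and most genes of the list were in neither count. Of the 23 genes, Asns and Chac1 were in neither count as well, and Atf4 and Ddit3 were among the 12 with both tumors lowest. The differences between the lists were not tested. Txndc11, Sec62, Creb3l3 and Cth, counted as below, were not detected in every tumor. Creb3l3 stood at 4.66 in VP16LXRa replicate 5 and 4.77 in VP16 replicate 1. These genes passed the filter through tumors where they were higher, so that the counts follow in part from the filter. A probe detected in these 2 tumors alone could not pass it.

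**Figure D4:**
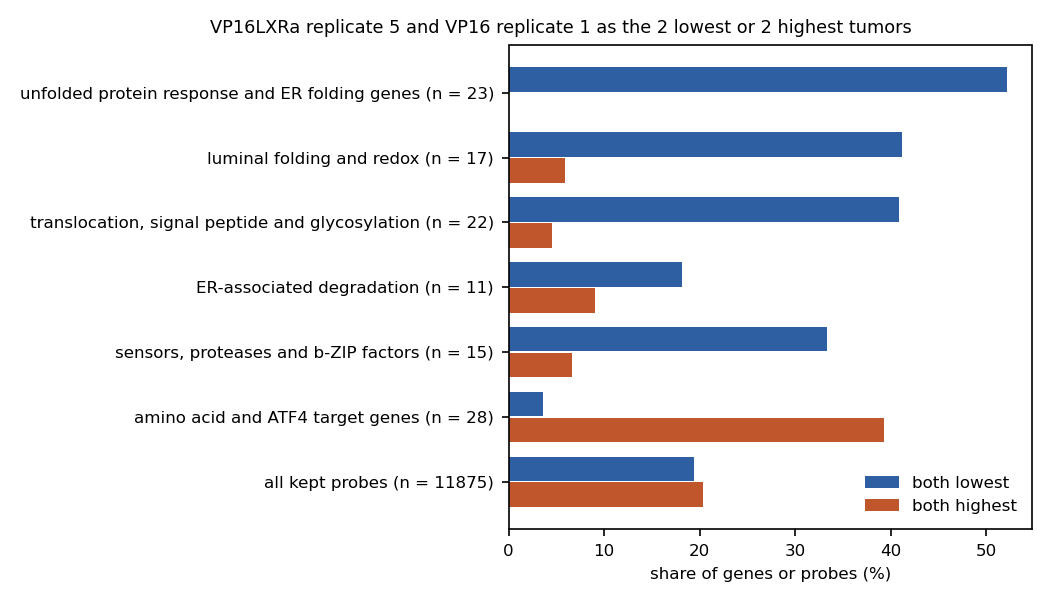
Share of genes (x axis, percent) for which VP16LXRa replicate 5 and VP16 replicate 1 were the 2 lowest (blue) or the 2 highest (orange) of the 8 tumors, for the 23 unfolded protein response and ER folding genes, the 5 lists of further pathway genes and all 11875 kept probes. Of the lists drawn, the blue bar is longest for the 23 genes (52.2%) and the orange bar for amino acid and ATF4 target genes (39.3%). Beside them stand 19.4% and 20.4% of all kept probes. The marker lists are not drawn. Their shares of both lowest were larger for colon epithelium (62.5%), goblet cells (66.7%), plasma cells (83.3%) and colonocytes (100%). Some genes counted as both lowest passed the filter through tumors where they were higher.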

How the data were processed

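Per the file headers, the deposited table pairs the average bead signal of each probe and array, a linear intensity that was not normalized, with its detection p-value. The submitters' processing notes name GenomeStudio, with no version. The authors' processed table, also deposited, holds intensities that go below 0, with steps not given in the sources used here, and served as an alternative. The function neqc of limma 3.58.1 (R 4.3.3) subtracted the background by normexp, using the detection p-values, added an offset of 16, made the arrays' quantiles equal and took log2, which shrinks differences of dim probes. Probes detected at a threshold of 0.01 on 4 or more arrays were kept (46.2%). Genotypes were taken from the sample titles, 4 arrays each. Differences are VP16LXRa minus VP16, from lmFit and eBayes over all 11875 kept probes, two-sided, with Benjamini-Hochberg adjustment and a threshold of 0.05. Each gene stands at its brightest kept probe. Arrays were alike in depth, with 44.6% to 47.7% of probes detected and a median unprocessed signal between 126 and 146. The number of arrays limits the precision. No file names a slide or a scan, so batches could not be examined.

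The genes and lists were chosen with earlier results of these data known. Values in every tumor are given for the 6 tested genes with the smallest p, the 6 with the largest SD over the 8 arrays, and Hspa5, Xbp1, Ddit3 and Atf4, and differences for up to 3 genes of each further list by smallest p. Genes named last of all, in the closing observations, were picked for their values. Promoters are RefSeq's (GRCm38.p6), matched by symbol for 25 of the 28 genes on the array. The script was tested on simulated data over 11875 probes with the real means and spreads, with 50 probes changed at each size. Calls numbered 22 at 1 log2 unit, 41 at 2, 47 at 3 and 49 at 4, beside 8 false calls. The simulated noise was independent between probes, with no arrays standing apart, and the many planted changes eased the adjustment. The counts therefore check the script and do not give the power of the real comparison. Alternatives tried were cyclic loess or median scaling in place of quantiles, uncorrected background, the authors' values (floor 16), an offset of 50, stricter and no filters, eBayes with trend and robust settings, array weights, leaving out arrays, and averaging the probes of a gene.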

Additional observations from a re-analysis of the deposited data

Results flagged for a closer look

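Dixon's test for a sample far from the others of its group was run on 62 groups of 4 (30 probes and the median deviation, in 2 genotypes). Of these, 6 lay past its 95% critical value, which a single group passes by chance about 1 time in 20. The groups share the same arrays and hold several probes of some genes, so that they are not independent. The count of 6 therefore does not measure an excess over chance. In VP16LXRa replicate 5, Herpud1 stood at 11.36, against 12.49 to 12.60 in the other VP16LXRa tumors, and Dnajc3 at 8.03, against 8.59 to 8.71. The median deviation of the 23 genes was -0.45 in that tumor, against 0.08 to 0.17 in the other VP16LXRa tumors. In VP16 replicate 1, Xbp1 stood at 12.35, against 12.72 to 12.73 in the other VP16 tumors, and Syvn1 at 11.37, against 12.05 to 12.13. At the dimmer probe of Sec61b, VP16LXRa replicate 8 stood at 8.64, against 8.34 to 8.38 in the other VP16LXRa tumors. The cause was not tested in any of these cases.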

How the results depend on the processing

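Under each of the 19 other settings run, 0 of the tested genes and 0 of the further pathway genes passed limma's adjusted threshold, and 0 of the tested genes had an unadjusted p under 0.05. The median log2 difference over the genes, 0.009 with the chosen processing, moved by less than the spread between tumors of a group (pooled SD 0.256) under each of them. It was between -0.068 and 0.128 with 1 array left out. With the arrays VP16LXRa 5 and VP16 1 left out it was 0.035, and 16 of 23 genes differed upward in place of 12. Array weights gave 17 of 23 upward, the largest count beside leaving out VP16LXRa replicate 5 alone (also 17), and 6 were upward when VP16 replicate 1 was absent or when VP16LXRa replicate 6 was. Only Calr, Chac1, Herpud1, Hyou1, Pdia6 and Syvn1 kept theirs under each setting that gave them a value, with ranges of 0.22 to 0.70 for Chac1, 0.065 to 0.554 for Pdia6, 0.039 to 0.505 for Herpud1, -0.378 to -0.003 for Syvn1, -0.39 to -0.08 for Calr and -0.327 to -0.104 for Hyou1. Asking for detection on all 8 arrays removed Manf and Derl3, and with no filter 28 genes were tested, 15 of them upward. The signal over background limits Manf and Derl3 most.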

Other observations

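The genes below were chosen after their values were seen, for standing apart in VP16LXRa replicate 5 and VP16 replicate 1, and are given as values only. Of the amino acid and ATF4 target genes, the cystine transporter gene Slc7a11 had a log2 intensity of 8.84 in VP16LXRa replicate 5 and 9.41 in VP16 replicate 1, against 5.41 to 6.97 in the other 6 tumors. Ddit4, a stress-induced inhibitor of mTOR, stood at 11.58 in VP16LXRa replicate 5 and 11.40 in VP16 replicate 1, against 8.84 to 9.63. The growth factor gene Gdf15 stood at 7.72 in VP16LXRa replicate 5 and 7.51 in VP16 replicate 1, against 5.33 to 6.23, and the serine synthesis gene Psat1 at 8.48 in VP16LXRa replicate 5 and 8.43 in VP16 replicate 1, against 7.05 to 8.14. Cth, which makes cysteine, was the 1 gene of that list with both tumors below the others, at 4.45 in VP16LXRa replicate 5 and 4.46 in VP16 replicate 1, against 5.36 to 8.03. Its probe was detected in 3 VP16LXRa and 2 VP16 tumors only.

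Of the ER genes, 3 others picked in the same way were at their lowest in these 2 tumors. Agr2, a disulfide isomerase needed for mucin, stood at 5.74 in VP16LXRa replicate 5 and 6.78 in VP16 replicate 1, against 8.42 to 8.81 in the other 6. Ern2, the IRE1 form of mucosal epithelium, stood at 11.56 in VP16LXRa replicate 5 and 12.19 in VP16 replicate 1, against 12.89 to 13.25, while its relative Ern1 was detected on no array. The membrane-bound factor Creb3l1 stood at 5.58 in VP16LXRa replicate 5 and 6.57 in VP16 replicate 1, against 7.18 to 8.04. Between the genotypes none of these 8 genes passed limma's test (adjusted p = 0.9999 for each).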
